A study of Mus musculus with 6 samples.

Results

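The respiratory chain is described here through the 109 genes whose names mark them as members of complexes I to V, out of 23060 gene names in the deposited table. They were chosen by name alone: 13 protein genes of the mitochondrial genome (the mt-Nd, mt-Co, mt-Cytb and mt-Atp genes) and 96 nuclear genes with Nduf, Sdh, Uqcr, Cyc1, Cox or Atp5 names. By structure they divided into 43 subunits of complex I, 4 of complex II, 10 of complex III, 21 of complex IV, 19 of complex V and 12 associated genes, which are 8 Ndufaf assembly factors, Cox7a2l, Ndufa4l2 and the rows Cox5b-ps and Ndufb1-ps. Ndufa4 was counted with complex IV, of which its protein is known to be a subunit. Of the 109 genes, 104 averaged 1 FPKM or more over the 6 libraries and could be tested. The other 5 were Atp5o, Cox7b2, Cox8b and Cox8c, listed at 0 in every library, and Cox6b2, at 0.0366 FPKM in tachypaced replicate 3 and at 0 elsewhere.

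Complexes I to IV pass electrons from NADH and succinate to oxygen in the inner mitochondrial membrane. Complexes I, III and IV pump protons on the way, and complex V, the ATP synthase, uses the resulting gradient to make ATP. Complexes I, III, IV and V are mosaics of subunits from both genomes: the mitochondrial genome encodes hydrophobic subunits of the catalytic core, and nuclear genes encode the rest, which are imported. Complex II is wholly nuclear and is shared with the tricarboxylic acid cycle. Mitochondrial transcripts are cut from long polycistronic precursors, whereas each nuclear gene has its own promoter. Cardiac muscle is known for a high content of these complexes.

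The libraries came from wild-type cells whose label is HL-1, the name of a cardiomyocyte line from mouse atrium: 3 from control cultures and 3 from tachypaced cultures, that is, under rapid electrical stimulation. All were grown in Claycomb medium with serum, penicillin/streptomycin, norepinephrine and L-glutamine, and the labels give neither the rate nor the duration of pacing. They do not say whether replicates came from separate cultures, so the spread that the p-values rest on may be a technical one. Most of the marker transcripts listed went against the label. Of 12 cardiomyocyte markers 6 carried a value of 0 in all 6 libraries (Gata4, Nkx2-5, Nppb, Myl7, Actc1 and Myh6). The sum of the 12 was 3.19 to 4 FPKM in control cells and 3.72 to 4 FPKM in tachypaced cells. Most of that sum was Tnni3, which was detected in every library. It stood at 3.29, 3.57 and 2.78 FPKM in the control and 3.51, 3.61 and 3.64 FPKM in the tachypaced libraries. Of 10 macrophage markers 9 could be tested. Of these 3 rose (Lyz2, Cd14 and Spp1) and 0 fell, where 2.3% and 3.22% of all genes tested did. Csf1r stood at 95.5 FPKM (control) and 94.8 FPKM (tachypaced) on average. Adgre1 was low, at 5.74 and 7.6 FPKM, and Fcgr1, the marker not tested, was at 0.187 and 0.32 FPKM. The sum of the 10 was 10601 to 12188 FPKM in control cells and 14042 to 16400.2 FPKM in tachypaced cells, most of it Spp1. A listing at 0 is limited evidence, since without counts it can be a failed estimate, as it may be for Atp5o. The part of these marker levels in the results below was not tested. FPKM divides a fragment count by the length of the transcript and by library size, so levels of genes are compared per length and relative to each library's total. Read depth is unknown.

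The library labelled control replicate 1 stood apart from its group. Over the 10361 genes tested, its root mean square difference in log2(FPKM + 1) was 0.222 and 0.244 from control replicates 2 and 3, and 0.202, 0.219 and 0.175 from tachypaced replicates 1, 2 and 3, so it lay closer to each tachypaced library than to either control. Over the 13 mitochondrial genes the order was the opposite, with 0.123 and 0.117 from the other controls and 0.281, 0.3 and 0.196 from the tachypaced libraries. Results are given with this library, and without it where they change.

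In tachypaced libraries, 5 respiratory chain genes rose and 0 fell. From the mitochondrial genome these were the genes for cytochrome b (mt-Cytb), for a core subunit of complex IV (mt-Co3) and for a core subunit of complex I (mt-Nd3), and from the nuclear genome Cox6a2 and Uqcrq. A gene was called when its Benjamini-Hochberg adjusted p over all 10361 genes tested was under 0.05 in limma, on the log2(FPKM + 1) scale, on which log2 changes are given as tachypaced minus control and the changes of low genes are understated. All genes tested gave 2.3% called higher and 3.22% called lower. The 3 of 13 genes of the mitochondrial genome make 23.1%, and the 2 of 91 tested nuclear genes make 2.2%, which is near the share of all genes. At an unadjusted p under 0.05, 17 members were higher and 15 lower, against 10.8% higher and 19.4% lower of all genes. In bulk RNA, a change in a transcript per cell and a change in the share of cells that carry it cannot be told apart.

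Across the complexes, the median log2 change over tested subunits was 0.08 for complex I, -0.15 for complex II, -0.04 for complex III, -0.05 for complex IV and 0.01 for complex V, beside -0.04 over all genes tested. By genome, the median was 0.21 over the 13 mitochondrial genes, all of which had a positive change, and -0.01 over the 91 nuclear genes, of which 44 had a positive and 47 a negative change. Over all genes tested 41.1% of changes were positive. This share applies to the counts of signs below, save where another setting or share is given. The sign of the nuclear median was not fixed by the data, as it was 0.020 under median of ratios scaling and -0.041 with a common total, and that of complex V changed likewise. All 3 tachypaced libraries lay above all 3 controls for 9 of the 13 mitochondrial genes, as for 12.6% of all genes tested. Among nuclear members this held for 13 of 91, and the tachypaced libraries lay wholly below the controls for 18 of 91, as for 22.4% of all genes tested.

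The calls depended on single libraries. Leaving out control replicate 2, control replicate 3 or any of tachypaced replicates 1, 2 and 3 left 0 members called, while leaving out control replicate 1 gave 9 members higher and 23 lower, where 11.2% and 18.8% of all genes were called. The 5 called genes were called without control replicate 1 too, with log2 changes of 0.41 for mt-Co3, 0.35 for mt-Nd3, 0.22 for mt-Cytb, 1.28 for Cox6a2 and 0.36 for Uqcrq. The mitochondrial median was then 0.18, with 12 of 13 changes positive (mt-Nd2 was not), the nuclear median -0.02, and the median of complex III -0.11. Without tachypaced replicate 3, 12 of 13 mitochondrial changes were positive too (mt-Nd6 was not). Summed FPKM was higher in every tachypaced library than in every control. With every library rescaled to the same FPKM total, 6 members were higher and 10 lower, where 2.41% and 8.92% of all genes were called.

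**Figure D1:**
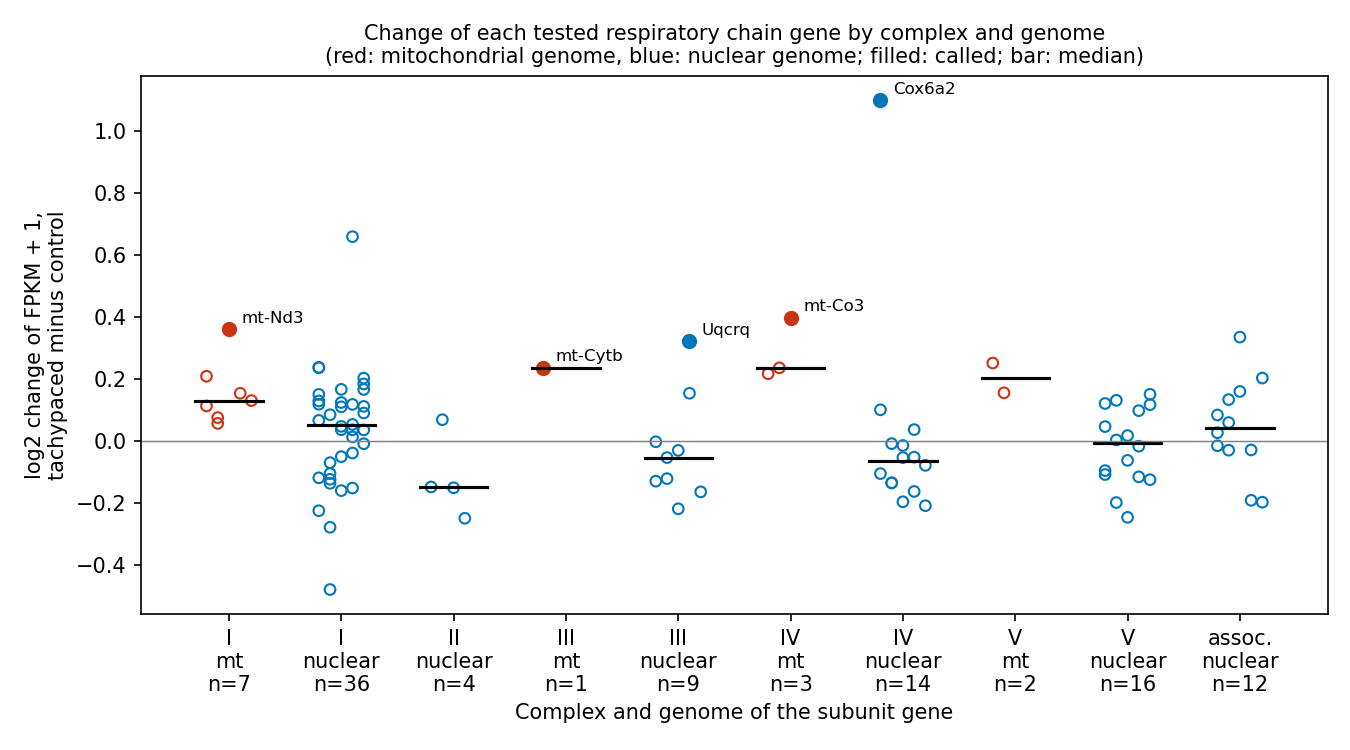
Log2 change of FPKM + 1 (tachypaced minus control, y axis) of the 104 tested genes by complex and genome (x axis); each circle is a gene, filled circles are called genes and bars are medians. All 13 mitochondrial genes lie above 0, while the nuclear genes of each complex lie on both sides of 0.

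The mitochondrial genome accounted for most of the respiratory chain FPKM. Its 13 genes held 7.91% to 8.42% of the summed FPKM of a control library and 9% to 9.72% of a tachypaced library, whereas the 79 tested nuclear subunits held 2.01% to 2.14% and 1.94% to 2%. These 13 are all the protein genes that GENCODE M21 places on the mitochondrial genome of GRCm38. Ribosomal and transfer RNA genes of that genome have no rows here and were not analysed here.

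Complex IV had the most abundant transcripts of the 13. mt-Co1, which encodes the subunit that reduces oxygen, stood at 14207, 13275 and 14706 FPKM in the control libraries and 17292, 16403 and 15357 FPKM in the tachypaced libraries. It made up 41.4% ± 0.726 of mitochondrial FPKM in control and 41% ± 0.828 in tachypaced libraries (SD, n = 3 each). All tachypaced values exceeded all control values, with a log2 change of 0.22 (SE 0.07, adjusted p = 0.0917). mt-Co2, whose product takes electrons from cytochrome c, stood at 3291, 3323 and 3444 FPKM in the control libraries and 4213, 3911 and 3736 FPKM in the tachypaced libraries. Its groups did not overlap either, and it missed the threshold with a log2 change of 0.24 (SE 0.06, adjusted p = 0.0574). mt-Co3, the third core subunit (mitochondrial genome, chrM:8607-9390, plus strand, GRCm38), rose from 3038 ± 50.7 to 4010.3 ± 227 FPKM. Its values were 3089.9, 2989 and 3037 FPKM in the control libraries and 4179, 4099.5 and 3752 FPKM in the tachypaced libraries, a log2 change of 0.40 (SE 0.06, adjusted p = 0.0435), the largest change of the 13 genes. It made up 8.95% ± 0.264 of mitochondrial FPKM in control and 10.1% ± 0.105 in tachypaced libraries.

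The complex III gene of this genome, mt-Cytb (cytochrome b, chrM:14145-15288, plus strand), rose with a log2 change of 0.24 (SE 0.06, adjusted p = 0.0466). It stood at 1221, 1270.3 and 1256 FPKM in the control libraries and 1472, 1544 and 1404 FPKM in the tachypaced libraries, and the groups did not overlap. For complex V, mt-Atp6 encodes the proton channel and mt-Atp8 a small subunit beside it. mt-Atp6 stood at 5982, 5861 and 6155 FPKM in the control libraries and 7185, 7637 and 6637 FPKM in the tachypaced libraries, a log2 change of 0.25 (SE 0.07, adjusted p = 0.0598). mt-Atp8 stood at 3705, 3234 and 3824 FPKM in the control libraries and 3883, 3967 and 4110.1 FPKM in the tachypaced libraries, a log2 change of 0.16 (SE 0.07, adjusted p = 0.186). In both genes every tachypaced library was above every control, and control replicate 2 was the lowest for both. Without that library the log2 change of mt-Atp8 was 0.08.

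Complex I takes 7 core subunits of its membrane arm, the part that pumps protons, from this genome. Of these mt-Nd3 rose (chrM:9459-9806, plus strand), with 20.2, 21.6 and 19.9 FPKM in the control libraries and 25.6, 28.9 and 25.7 FPKM in the tachypaced libraries and a log2 change of 0.36 (SE 0.07, adjusted p = 0.0435). It was also the lowest of the 13 genes, far below mt-Co3, the protein gene upstream of it. mt-Nd1 stood at 467, 516 and 527 FPKM in the control libraries and 609, 566 and 569.8 FPKM in the tachypaced libraries, a log2 change of 0.21 (SE 0.06, adjusted p = 0.0698), and mt-Nd4 at 1024, 1065 and 1024 FPKM in the control libraries and 1177, 1211 and 1079 FPKM in the tachypaced libraries, a log2 change of 0.15 (SE 0.06, adjusted p = 0.12). For both, the groups did not overlap. The remaining 4 overlapped between groups. mt-Nd2 was at 247 ± 25.3 FPKM (control) and 256 ± 18.9 FPKM (tachypaced), mt-Nd4l at 425 ± 47.9 FPKM (control) and 465 ± 52 FPKM (tachypaced), and mt-Nd5 at 380.2 ± 27.1 FPKM (control) and 411 ± 25.7 FPKM (tachypaced). Their log2 changes were 0.06, 0.13 and 0.11. mt-Nd6, the only one of the 13 encoded on the minus strand, stood at 52.9, 54.4 and 51.5 FPKM in the control libraries and 51.5, 53.4 and 63.2 FPKM in the tachypaced libraries, a log2 change of 0.08 (SE 0.08, adjusted p = 0.537). Without tachypaced replicate 3, mt-Nd6 had a log2 change of -0.01. Its annotated 3′ end overlaps that of mt-Nd5 on the other strand, and the strand setting of the counting is not given in the sources used here.

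**Figure D2:**
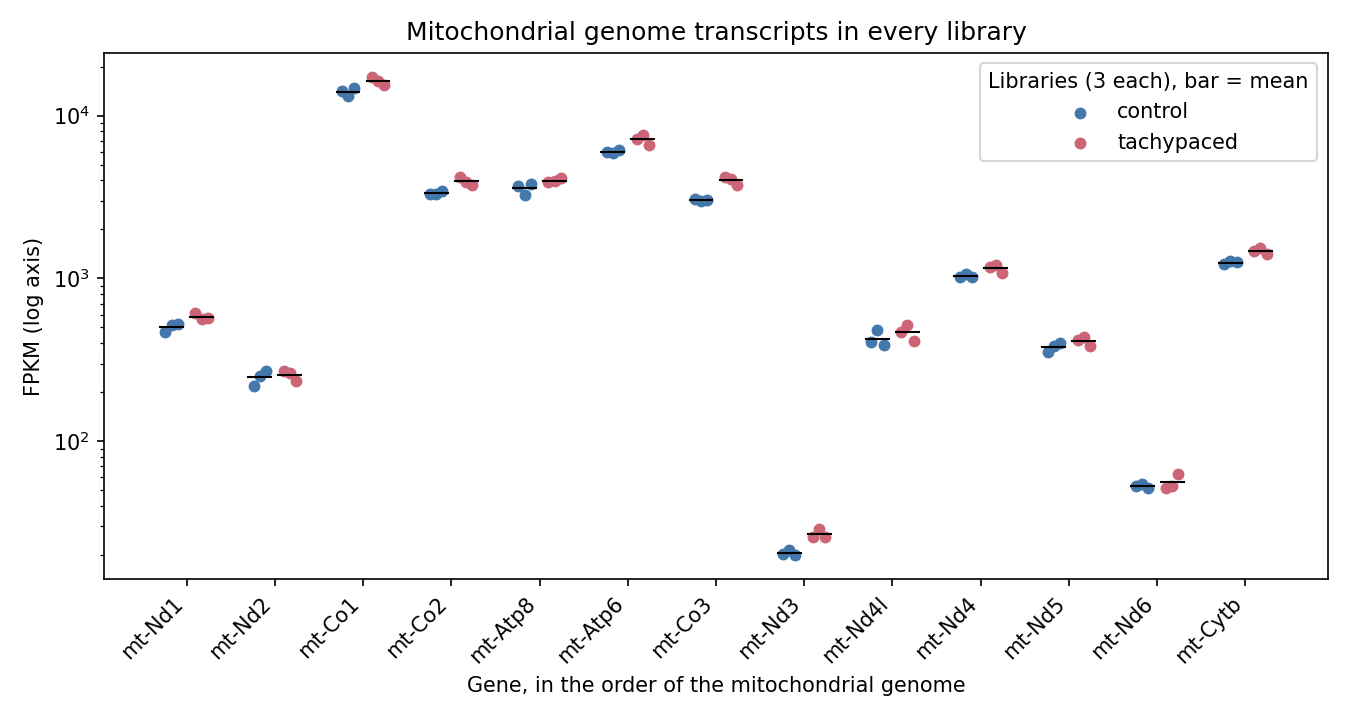
FPKM (y axis, log scale) of the 13 mitochondrial genes in genome order (x axis) in each of 3 control and 3 tachypaced libraries; points are libraries and bars group means. mt-Co1 is the highest and mt-Nd3 the lowest, and the groups do not overlap for 9 of the 13 genes.

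Some values of this genome are not independent of each other, which its sequence shows. mt-Atp8 and mt-Atp6 share 43 bases and mt-Nd4l and mt-Nd4 share 7, and each pair is carried on a single messenger. The shared bases are in capitals below, in sequences from GENCODE M21 transcripts (GRCm38, plus strand of the mitochondrial genome).
mt-Atp8 3′ end, chrM:7910-7969: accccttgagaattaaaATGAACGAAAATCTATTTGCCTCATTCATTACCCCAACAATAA
mt-Atp6 5′ end, chrM:7927-7986: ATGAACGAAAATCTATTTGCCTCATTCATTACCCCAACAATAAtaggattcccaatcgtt
mt-Nd4l 3′ end, chrM:10114-10173: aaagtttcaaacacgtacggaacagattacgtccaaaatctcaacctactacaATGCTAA
mt-Nd4 5′ end, chrM:10167-10226: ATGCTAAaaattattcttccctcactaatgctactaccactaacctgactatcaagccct
On the shared messenger, mt-Atp6 was listed higher than mt-Atp8 in all 6 libraries and mt-Nd4 higher than mt-Nd4l. The log2 changes were 0.16 and 0.25 in the former pair and 0.13 and 0.15 in the latter, each difference being smaller than the sum of the SEs within its pair.

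Of the 13 annotated transcripts 3, those of mt-Co3, mt-Nd4 and mt-Cytb, end before their stop codon is complete. Mitochondrial messengers of this kind are known to gain the rest of it with their poly(A) tail, and the library kit is named for messenger RNA. The last 30 bases of the 3 called genes are shown, with the bases of the stop codon in capitals. It is incomplete in mt-Co3 and mt-Cytb and complete in mt-Nd3.
mt-Co3: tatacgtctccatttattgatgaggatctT
mt-Cytb: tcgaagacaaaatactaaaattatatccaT
mt-Nd3: acacaaaaaggattagaatgaacagagTAA
The nuclear genome holds copies of parts of the mitochondrial genome. With at least 95% identity over at least 50% of the transcript, 8 of the 13 genes had an annotated copy of another name. mt-Co3, mt-Co2, mt-Atp6 and mt-Nd4l matched such a pseudogene with 100% identity over 783, 681, 678 and 294 bases. mt-Nd4 matched one with 100% identity over 876 bases, and mt-Nd3 one with 99.7% identity over 345 bases. None of these copies has a row in the table, and how reads shared with them were assigned is not given in the sources used here.

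The balance of the genomes was then taken within each library, as the mean log2(FPKM + 1) of mitochondrial subunits minus that of nuclear subunits, a difference of levels. Over the 13 mitochondrial and 75 nuclear subunits of complexes I, III, IV and V it was 3.48, 3.43 and 3.51 in the control and 3.71, 3.64 and 3.64 in the tachypaced libraries. Every tachypaced library was above every control, by 0.19 on average. The same order held within each of the 4 complexes, with mean differences between groups of 0.12 for complex I, 0.26 for complex III, 0.28 for complex IV and 0.22 for complex V. In complex IV the balance was 6.08, 5.93 and 6.11 in the control and 6.45, 6.26 and 6.25 in the tachypaced libraries. In complex I it was 2.01, 2.03 and 2.07 in the control and 2.18, 2.14 and 2.16 in the tachypaced libraries. No test was made of these scores over the members.

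The ratio of summed FPKM, mitochondrial over nuclear, was 4.15 ± 0.251 in control and 4.98 ± 0.226 in tachypaced libraries over the 4 complexes (SD, n = 3 each). It was lowest in complex I, at 1.21 ± 0.0179 and 1.31 ± 0.0421, and highest in complex IV, at 9.53 ± 0.76 and 11.7 ± 0.774. Over the mitochondrial genes, control replicate 1 did not stand toward the tachypaced libraries: its mean log2 value relative to the control mean was -0.034, the lowest of the 6 libraries. Quantile normalization gives libraries the same distribution and so fixes the values of the highest ranks. Under it, the median over mitochondrial genes was 0.06. mt-Co1 and mt-Atp6 had changes of 0 apart from rounding, mt-Atp8 was below 0 and the rest were positive. The other scalings tried kept all 13 positive.

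**Figure D3:**
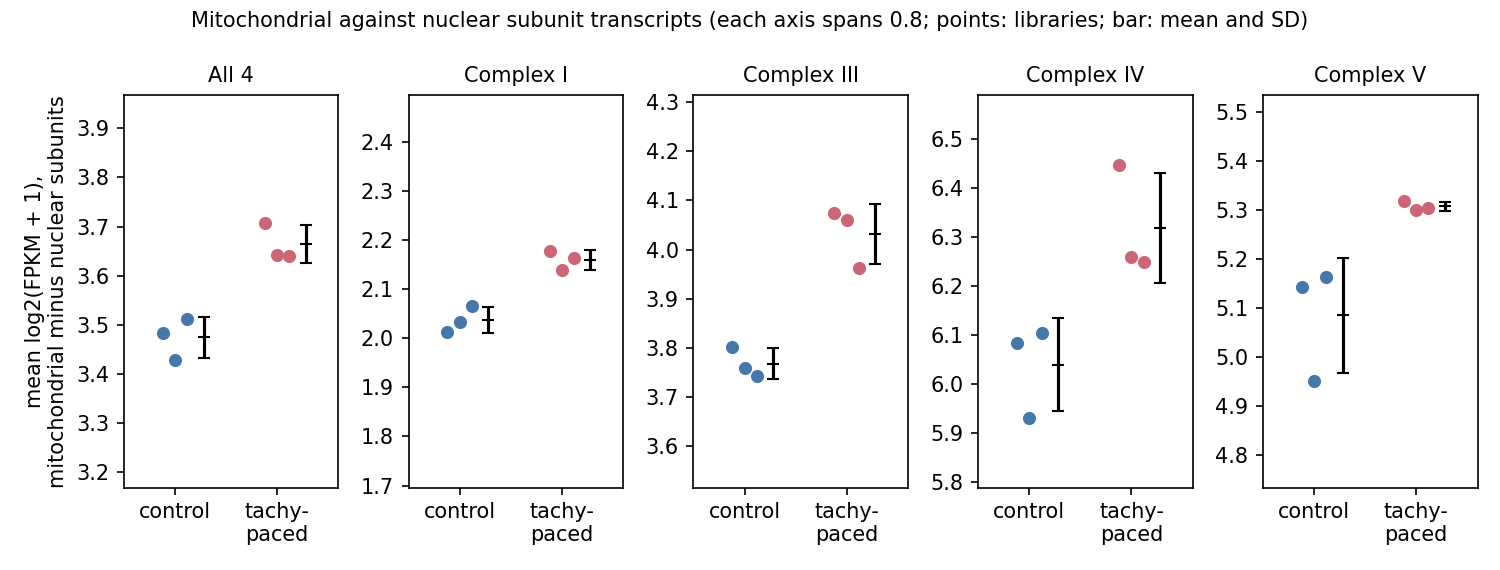
Mean log2(FPKM + 1) of mitochondrial subunits minus that of nuclear subunits (y axis) in control and tachypaced libraries (x axis), over complexes I, III, IV and V together and in each; points are libraries, bars the mean and SD of 3. In all 5 panels the 3 tachypaced libraries sit above the 3 control libraries.

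Complex I, the NADH dehydrogenase, has the most subunits, and its 36 nuclear genes were all tested. None was called by limma in either direction. At an unadjusted p under 0.05, 5 were higher and 5 lower, against 10.8% and 19.4% of all genes. The 7 nuclear core subunits, which hold the flavin and the iron-sulfur clusters or bind quinone, and the 29 accessory subunits, which surround the core, lay on different sides of 0. Of the core genes 6 of 7 had a negative change (median -0.15), and of the accessory genes 22 of 29 had a positive change (median 0.08). Of all genes tested 41.1% had a positive change. Under quantile normalization and median of ratios scaling 5 of the 7 core changes were negative, and rescaling to a common total left 18 of the 29 accessory changes positive, with a median of 0.05. Without tachypaced replicate 2 it was also 18 of 29, with a median of 0.04. The difference between these classes was not tested.

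Among the core genes, Ndufs7, an iron-sulfur subunit at the quinone site, stood at 55.9, 64.2 and 67.7 FPKM in the control libraries and 51.2, 52.2 and 50.4 FPKM in the tachypaced libraries, a log2 change of -0.28 (SE 0.07, adjusted p = 0.0549). Ndufs1, which carries several iron-sulfur clusters, stood at 55.2, 57 and 63.6 FPKM in the control libraries and 48, 49.7 and 52.1 FPKM in the tachypaced libraries, a log2 change of -0.23 (SE 0.07, adjusted p = 0.069). In both genes all tachypaced libraries were below all controls, and control replicate 1 was the lowest control. Ndufv1, which binds NADH and the flavin, was at 75.5 ± 3.59 FPKM (control) and 67.8 ± 0.326 FPKM (tachypaced), with a log2 change of -0.15. Its groups did not overlap either. Ndufs3 (log2 change -0.16), Ndufv2 (-0.01) and Ndufs8 (0.11) overlapped between groups. Ndufs3 has an annotated pseudogene with 98.6% identity over 792 bases, so its level is uncertain. As a mean relative to the control mean, the 7 core genes stood at -0.083, 0.026 and 0.057 in the control and -0.134, -0.093 and -0.139 in the tachypaced libraries, so the groups were apart and control replicate 1 lay nearest to the tachypaced ones. Without control replicate 1, Ndufs1, Ndufs3, Ndufs7 and Ndufv1 were called lower, where 18.8% of all genes were.

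The extremes of the nuclear complex I genes were accessory. Ndufa12 stood at 27.9, 32 and 13.2 FPKM in the control libraries and 36.8, 33.1 and 40.4 FPKM in the tachypaced libraries. Control replicate 3 was far below the other controls, and the log2 change of 0.66 (SE 0.26, adjusted p = 0.131) rests in part on it: without that library the log2 change was 0.29. Ndufa9, a subunit at the junction of the arms, stood at 27.2, 39.9 and 43.7 FPKM in the control libraries and 25.5, 26 and 25.5 FPKM in the tachypaced libraries, a log2 change of -0.48 (SE 0.14, adjusted p = 0.0728). Here control replicate 1 lay next to the tachypaced libraries, and without it Ndufa9 was called lower (log2 change -0.68, adjusted p = 0.000437). Ndufb7 was at 45.4 ± 4.48 FPKM (control) and 53.6 ± 3.22 FPKM (tachypaced), Ndufc2 at 82.2 ± 0.936 FPKM (control) and 93.7 ± 5.81 FPKM (tachypaced) and Ndufa7 at 102 ± 2.33 FPKM (control) and 118 ± 11.7 FPKM (tachypaced), each with groups that did not overlap. Their log2 changes were 0.24, 0.18 and 0.20. The accessory genes as a whole stood at -0.035, 0.073 and -0.038 in the control and 0.059, 0.153 and 0.002 in the tachypaced libraries, so their groups overlapped, with tachypaced replicate 2 the highest. Of the 29, 8 had all tachypaced libraries above all controls and 2, Ndufa9 and Ndufb3, had them below. These orders held for 12.6% and 22.4% of all genes tested. Ndufa2, which overlapped by a single library, was at 103, 111 and 90.6 FPKM in the control libraries and 117, 136 and 106 FPKM in the tachypaced libraries. Ndufab1, the acyl carrier protein that complex I shares with fatty acid synthesis in mitochondria, was at 30.8 ± 0.919 FPKM (control) and 33.7 ± 1.77 FPKM (tachypaced), and Ndufs4, an accessory subunit whose loss causes complex I disease, at 27.9 ± 1.34 FPKM (control) and 29 ± 2.46 FPKM (tachypaced). Their log2 changes were 0.24, 0.12 and 0.05. Levels among the 36 nuclear genes ran from 13.3 FPKM (Ndufa5) to 150.3 FPKM (Ndufb8), means over the 6 libraries.

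**Figure D4:**
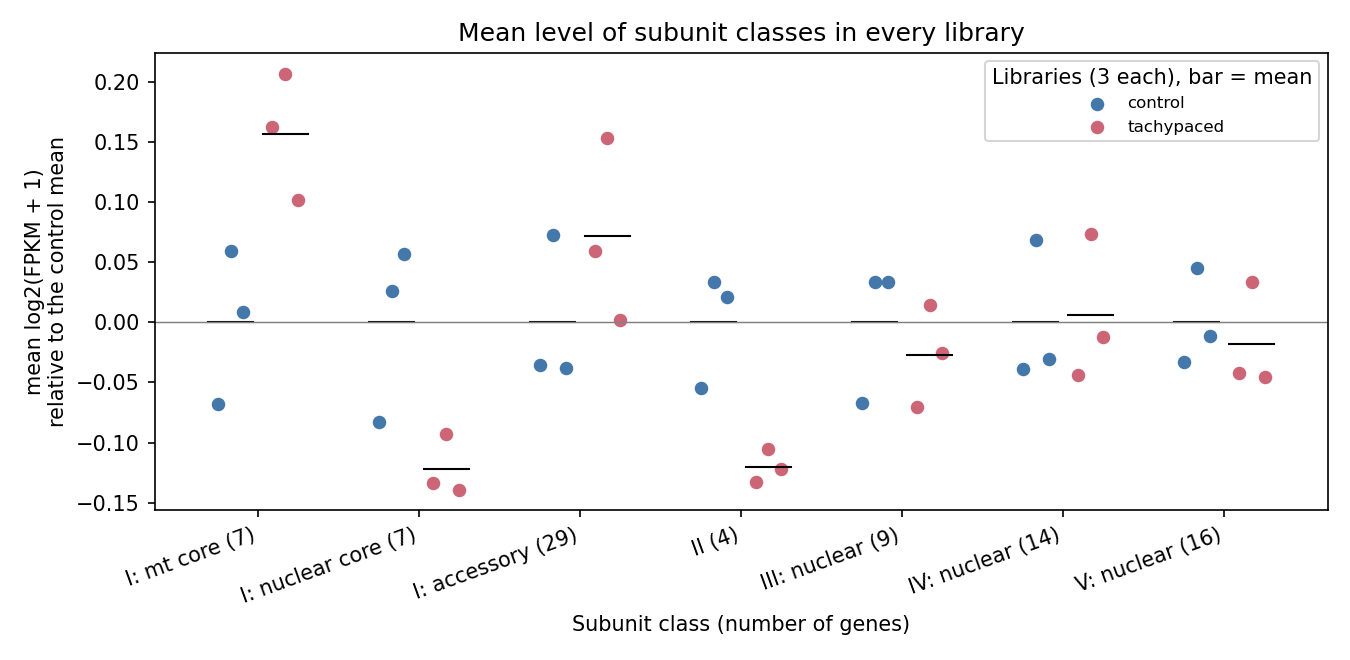
Mean log2(FPKM + 1) relative to the control mean (y axis) of subunit classes (x axis, number of genes in brackets) in each library; points are libraries and bars group means. The tachypaced libraries lie above the controls for the mitochondrial core of complex I, below them for its nuclear core and for complex II, and overlap them for the other classes.

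Complex II, succinate dehydrogenase, has 4 genes, all nuclear. None was called by limma, and 3 were lower and 0 higher at an unadjusted p under 0.05, against 19.4% and 10.8% of all genes. Sdhd, a membrane anchor, stood at 111, 132 and 125 FPKM in the control libraries and 105, 97.4 and 106 FPKM in the tachypaced libraries, a log2 change of -0.25 (SE 0.07, adjusted p = 0.0663). Sdhc, the other anchor, was at 31.2, 33.9 and 34.4 FPKM in the control libraries and 29.7, 30.1 and 29.4 FPKM in the tachypaced libraries, a log2 change of -0.15 (SE 0.06, adjusted p = 0.117). Sdha, the flavoprotein that oxidizes succinate, was at 110.4, 111 and 111 FPKM in the control libraries and 97.5, 100.4 and 102 FPKM in the tachypaced libraries, a log2 change of -0.15 (SE 0.05, adjusted p = 0.0797). In these 3 genes every tachypaced library was below every control, as for 22.4% of all genes tested. Sdhb, the iron-sulfur subunit, did not share this: it was at 120.2, 118 and 119.6 FPKM in the control libraries and 121, 135 and 119.6 FPKM in the tachypaced libraries, a log2 change of 0.07 (SE 0.06, adjusted p = 0.452), with overlapping groups. Over the 4 genes the means relative to the control mean were -0.054, 0.033 and 0.021 in the control and -0.133, -0.106 and -0.122 in the tachypaced libraries. Without control replicate 1, Sdha, Sdhc and Sdhd were called lower, where 18.8% of all genes were.

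In complex III, which passes electrons from quinol to cytochrome c, Uqcrq rose (chr11:53427922-53430831, minus strand). This small accessory subunit stood at 73.8, 73 and 64.9 FPKM in the control libraries and 83.8, 95.6 and 86.3 FPKM in the tachypaced libraries, a log2 change of 0.32 (SE 0.07, adjusted p = 0.0448). The lowest of the complex by change was Uqcrh, the hinge subunit near cytochrome c1, at 281, 323 and 335 FPKM in the control libraries and 276, 252 and 277 FPKM in the tachypaced libraries, a log2 change of -0.22 (SE 0.07, adjusted p = 0.0923). Its groups did not overlap. The nuclear core subunits were Cyc1 (cytochrome c1) at 71.6 ± 3.47 FPKM (control) and 65.3 ± 4.35 FPKM (tachypaced) and Uqcrfs1 (the Rieske iron-sulfur protein) at 74.8 ± 3.96 FPKM (control) and 68.6 ± 1.16 FPKM (tachypaced), with log2 changes of -0.13 and -0.12. The large matrix proteins of the complex are Uqcrc1 and Uqcrc2. Uqcrc1 stood at 114 ± 8.13 FPKM (control) and 101 ± 1.73 FPKM (tachypaced), without overlap, and Uqcrc2 at 101 ± 3.4 FPKM (control) and 101 ± 3.27 FPKM (tachypaced). Of the 9 nuclear genes 7 had a negative and 2 a positive change, with a median of -0.05. Besides Uqcrq the positive change was that of Uqcrb, 0.15 (SE 0.08), which has 3 annotated near-identical pseudogenes, so that its level is uncertain. Uqcr10 and Uqcr11, small subunits of the membrane part, had changes of -0.05 and -0.03.

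Complex IV, cytochrome c oxidase, carries several subunits that exist as alternative isoforms in different tissues, and of these Cox6a2 rose. Cox6a2 (chr7:128205435-128206387, minus strand, GRCm38) encodes the heart and skeletal muscle form of subunit VIa, and Cox6a1 (chr5:115345642-115348981, minus strand) the form of other tissues. Cox6a2 stood at 7.54, 5.26 and 4.56 FPKM in the control libraries and 11.8, 16.6 and 12.1 FPKM in the tachypaced libraries. All tachypaced libraries were above all controls, with control replicate 1 the highest control and tachypaced replicate 2 the highest of all. The change, a log2 change of 1.1 (SE 0.17, adjusted p = 0.0435), was the largest of the 104 tested members. Cox6a1 was at 292, 328 and 302 FPKM in the control libraries and 272, 300.3 and 300 FPKM in the tachypaced libraries, a log2 change of -0.08 (SE 0.06, adjusted p = 0.43). Of the summed FPKM of both isoforms, Cox6a2 made up 1.86% ± 0.569 in control and 4.41% ± 0.717 in tachypaced libraries, so Cox6a1 remained the main form in all 6.

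No other isoform typical of muscle was called. Cox7a1, the muscle form of subunit VIIa, stood at 5.83, 6.82 and 4.91 FPKM in the control libraries and 4.5, 6.45 and 5.9 FPKM in the tachypaced libraries, a log2 change of -0.05 (SE 0.13, adjusted p = 0.82). Its share of the sum with Cox7a2 was 5.26% ± 0.825 and 5.81% ± 0.98. Cox8b, the muscle form of subunit VIII, was listed at 0 throughout, while Cox8a stood at 361 ± 10.3 FPKM (control) and 357 ± 3.41 FPKM (tachypaced). Cox4i2, a form of subunit IV known from lung and from low oxygen, was at 1.79 ± 0.527 FPKM (control) and 1.75 ± 0.247 FPKM (tachypaced), beside Cox4i1 at 421 ± 13.7 FPKM (control) and 452 ± 34.8 FPKM (tachypaced). Cox6b2, Cox7b2 and Cox8c, known from testis, were at or near 0, and their partners Cox6b1 and Cox7b stood at 129 ± 12.6 FPKM (control) and 117 ± 0.734 FPKM (tachypaced) and at 99 ± 9.39 FPKM (control) and 91.8 ± 4.39 FPKM (tachypaced). Of the 14 tested nuclear genes of the complex 11 had a negative change (median -0.07), against 3 of 3 positive changes among its mitochondrial genes. Cox5a, which binds on the matrix side, was at 159 ± 11.5 FPKM (control) and 138 ± 4.42 FPKM (tachypaced), and Ndufa4 at 119.8 ± 7.67 FPKM (control) and 107 ± 2.08 FPKM (tachypaced). Neither overlapped between groups, with log2 changes of -0.20 and -0.16, and that of Cox7a2 was -0.21. Without control replicate 2 the change of Cox7a2 was -0.11 and that of Cox5a -0.15, so which of them was lowest rested on that library. Without control replicate 1, Cox5a, Cox6b1, Cox7a2, Cox7b, Cox7c and Ndufa4 were called lower, where 18.8% of all genes were.

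**Figure D5:**
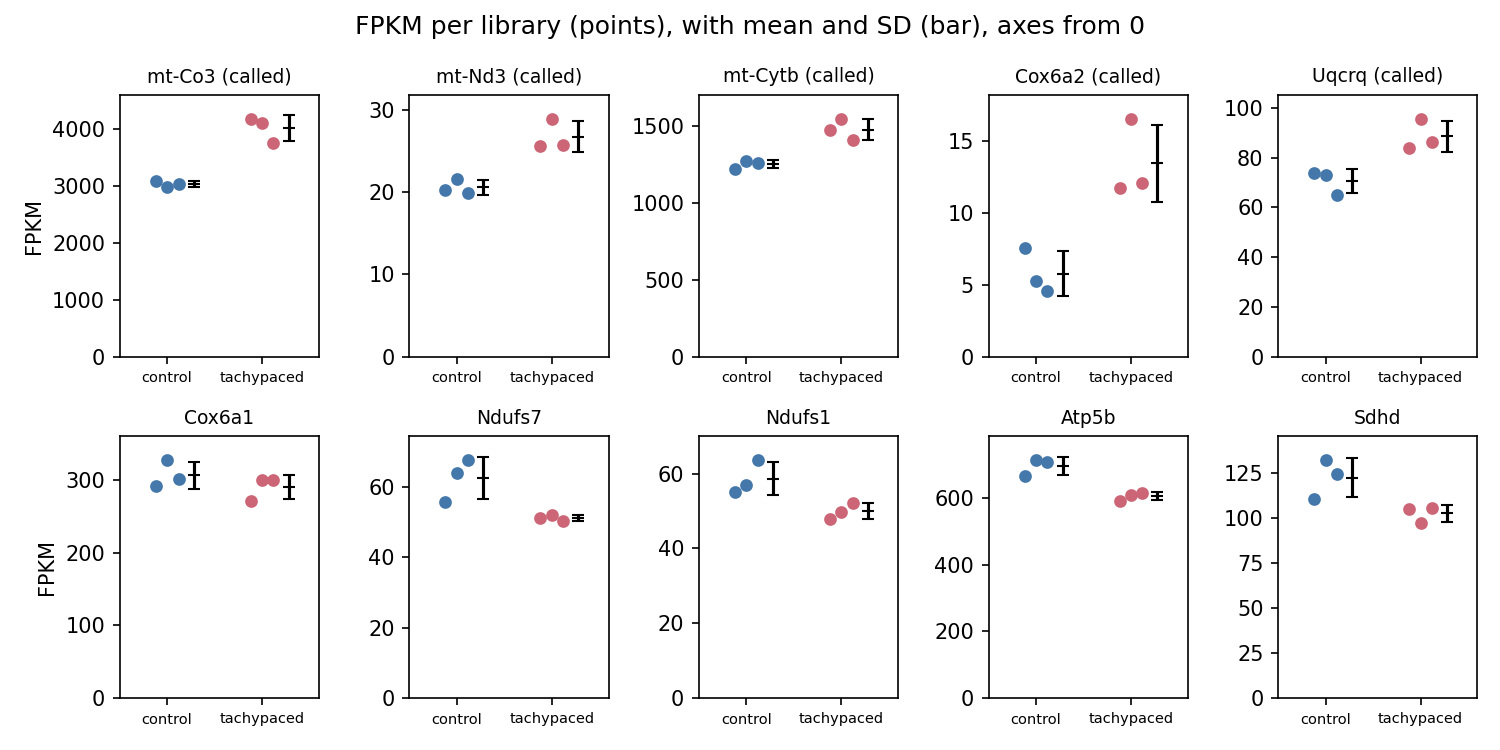
FPKM (y axis, from 0) of 10 genes in each control and tachypaced library (x axis); points are libraries, bars the mean and SD of 3, and the 5 called genes are marked. Cox6a2 stood at 5.78 and 13.5 FPKM on average, while its partner Cox6a1 overlapped between groups near 299 FPKM.

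Complex V gave no called gene, with 2 genes higher and 2 lower at an unadjusted p under 0.05. Of all genes 10.8% were higher and 19.4% lower at that threshold. Atp5b, the catalytic beta subunit and the most abundant nuclear transcript of the members, stood at 667, 716 and 710.3 FPKM in the control libraries and 593, 611 and 617 FPKM in the tachypaced libraries, a log2 change of -0.20 (SE 0.05, adjusted p = 0.0548). All tachypaced libraries were below all controls. Its partner in the catalytic head, Atp5a1 (alpha), was at 368 ± 12.3 FPKM (control) and 341 ± 9.78 FPKM (tachypaced), also without overlap, with a log2 change of -0.11. The gamma, delta and epsilon subunits, Atp5c1, Atp5d and Atp5e, had changes of -0.06, -0.02 and 0.12. In the peripheral stalk Atp5j stood at 78.4, 83 and 71.8 FPKM in the control libraries and 85.9, 87.6 and 85.2 FPKM in the tachypaced libraries, a log2 change of 0.15 (SE 0.06, adjusted p = 0.136), the highest of the nuclear genes of the complex. The other stalk genes Atp5h and Atp5pb had changes of 0.10 and 0.05. In the membrane part Atp5k, Atp5j2 and Atp5l had changes of 0.13, 0.12 and 0.02, and the small proteins Atp5md and Atp5mpl had -0.12 and -0.13. Atp5h, Atp5k and Atp5l have near-identical annotated pseudogenes, which makes their levels uncertain. Atp5o, the stalk subunit at the top of the head, is listed at 0 in all libraries, although every cell with an ATP synthase uses it, so the listing may be a failed estimate. In GENCODE M21 its symbol belongs to 2 overlapping gene models, and Atp5o also has an annotated pseudogene with 97% identity over 643 bases.

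The rotor ring of complex V is made of a single protein encoded by 3 genes that differ in their import signals. Of their summed FPKM, Atp5g2 held 49.1% ± 4.33 in control and 52.9% ± 0.533 in tachypaced libraries, Atp5g3 39.7% ± 4.27 and 35.8% ± 0.552, and Atp5g1 11.2% ± 0.724 and 11.3% ± 1.02. Atp5g3 had the lowest change of the complex with all 6 libraries. It stood at 124, 144 and 162 FPKM in the control libraries and 118, 122 and 119.8 FPKM in the tachypaced libraries, a log2 change of -0.25 (SE 0.09, adjusted p = 0.0987), with groups that did not overlap. The controls were spread, and the log2 change was -0.35 without control replicate 1, the lowest of them, and -0.16 without control replicate 3, the highest.

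The 8 Ndufaf assembly factors of complex I, which help to build it and are not part of the finished enzyme, were listed below every nuclear subunit of complex I, at 4.54 to 12.4 FPKM as means over the 6 libraries. None was called by limma, and at an unadjusted p under 0.05 Ndufaf2 alone was higher and 0 were lower. The shares of all genes were 10.8% and 19.4%. Changes were positive in 4 and negative in 4. Ndufaf2 stood at 10.6, 12 and 11.7 FPKM in the control libraries and 12.4, 14.4 and 13.1 FPKM in the tachypaced libraries, a log2 change of 0.20 (SE 0.08, adjusted p = 0.114). Ndufaf7, a mitochondrial methyltransferase, had the lowest change, -0.20 (SE 0.09). Cox7a2l, which joins complexes III and IV into supercomplexes, stood at 189.95 ± 2.22 FPKM (control) and 186 ± 9.02 FPKM (tachypaced). Ndufa4l2, a paralog of Ndufa4 known to respond to low oxygen, was at 3.29, 3.17 and 1.67 FPKM in the control libraries and 3.36, 4.4 and 3.06 FPKM in the tachypaced libraries, a log2 change of 0.34 (SE 0.18, adjusted p = 0.245), with overlapping groups. Control replicate 3 was the lowest library, and without it the log2 change was 0.11. Cox5b-ps and Ndufb1-ps were at 23.6 ± 1.4 FPKM (control) and 24.1 ± 1.52 FPKM (tachypaced) and at 21.4 ± 1.22 FPKM (control) and 23.5 ± 1.6 FPKM (tachypaced).

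Genes that serve the chain without being part of it were read from lists of further assembly factors, mitochondrial transcription and DNA replication, nuclear regulators and electron carriers. Of 24 tested genes of mitochondrial transcription and RNA handling, 0 rose and 1 fell. It was Grsf1, an RNA-binding protein of the mitochondrial RNA granules, at 59.7, 67.4 and 69.5 FPKM in the control libraries and 56.3, 47.6 and 50.5 FPKM in the tachypaced libraries (log2 change -0.34, SE 0.08, adjusted p = 0.046). The median of this list was -0.06, and 19 of the 24 changes were negative. The mitochondrial RNA polymerase Polrmt stood at 7.06 ± 0.227 FPKM (control) and 6.73 ± 0.363 FPKM (tachypaced), and the packaging and transcription factor Tfam at 5.08 ± 0.188 FPKM (control) and 4.39 ± 0.0441 FPKM (tachypaced), and neither was called. Of 10 genes of mitochondrial DNA replication 0 were called in either direction (median -0.04).

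Of 9 tested nuclear regulators of respiratory genes 0 rose and 1 fell. Nrf1, a transcription factor for many nuclear subunit genes, stood at 10.9, 11.9 and 11.6 FPKM in the control libraries and 7.91, 8.49 and 9.41 FPKM in the tachypaced libraries, a log2 change of -0.38 (SE 0.08, adjusted p = 0.0435), and the groups did not overlap. Of 21 electron carrier and membrane transport genes 0 rose and 2 fell. Etfdh, which feeds electrons from fatty acid oxidation into the quinone pool, stood at 40.6, 41.5 and 42.5 FPKM in the control libraries and 31.9, 33.1 and 36 FPKM in the tachypaced libraries, and Slc25a5, an ADP/ATP carrier, at 307, 329 and 357 FPKM in the control libraries and 255, 272 and 264 FPKM in the tachypaced libraries. Their log2 changes were -0.30 (SE 0.06) and -0.32 (SE 0.06). Cycs, cytochrome c itself, was at 25.8 ± 1.37 FPKM (control) and 27.8 ± 1.31 FPKM (tachypaced). Of 5 assembly factors of complex V, Fmc1 rose, from 10.9 ± 0.354 to 15.6 ± 1.35 FPKM (log2 change 0.48, SE 0.07), and 0 fell. Among the 10, 9 and 22 tested further assembly factors of complex I, of complexes II and III and of complex IV, 0 were called in either direction. The shares of all genes called, given above, apply to these counts, and Nrf1, Grsf1, Fmc1, Etfdh and Slc25a5 lost the call, as the called members did, without any one library other than control replicate 1. Under quantile normalization Nrf1, Grsf1 and Etfdh were not called, and Grsf1 was also not called under median of ratios scaling (adjusted p = 0.0569) and with the replicate block (adjusted p = 0.055). With no filter on low values, and without the trended prior of limma, none of Nrf1, Grsf1, Fmc1, Etfdh and Slc25a5 was called.

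Promoter sequences were matched by symbol for 68 of the nuclear subunit genes (RefSeq, GRCm38.p6, 300 bases from 250 before to 50 after a start, 73 promoters). Those of Cox6a2 and Uqcrq were not among them. The core motif of NRF1, GCGCA followed at once by its reverse complement TGCGC, which reads the same on both strands, was in 6.85% of member promoters and in 0.971% of all 32851 promoters. The YY1 core AAGATGGC, on either strand, was in 13.7% and 2.75%, and the ETS core CCGGAAGT, on either strand, in 6.85% and 3.89%. The motifs do not overlap each other in the promoters shown. The NRF1 core was in the promoters of 5 members, Cox6a1, Uqcrc1, Atp5k, Atp5g2 and Ndufa11, and none of the 5 was called by limma. Their log2 changes were -0.08, -0.16, 0.13, 0.00 and 0.17. The YY1 core was in those of 10 members, among them Ndufs7 and Ndufa9. The promoters of Cox6a1 and Uqcrc1, with the NRF1 core in capitals, and of Ndufs7, with the YY1 core in capitals, are shown to place these letters; a match is not a measured binding site.
Cox6a1, chr5:115348909-115349208, minus strand: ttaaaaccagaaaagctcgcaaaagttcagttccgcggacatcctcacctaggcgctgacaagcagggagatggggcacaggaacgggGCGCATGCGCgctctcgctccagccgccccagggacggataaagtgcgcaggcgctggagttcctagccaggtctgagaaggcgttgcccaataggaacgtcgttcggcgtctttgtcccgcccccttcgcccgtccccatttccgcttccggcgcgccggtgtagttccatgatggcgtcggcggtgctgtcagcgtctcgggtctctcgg
Uqcrc1, chr9:108936398-108936697, plus strand: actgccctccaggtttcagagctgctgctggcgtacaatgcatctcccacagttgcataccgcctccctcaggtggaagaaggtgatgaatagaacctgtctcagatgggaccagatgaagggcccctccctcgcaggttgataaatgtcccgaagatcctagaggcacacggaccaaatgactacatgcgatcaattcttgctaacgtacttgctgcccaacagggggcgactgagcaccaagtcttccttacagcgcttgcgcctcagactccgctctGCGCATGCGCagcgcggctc
Ndufs7, chr10:80249199-80249498, plus strand: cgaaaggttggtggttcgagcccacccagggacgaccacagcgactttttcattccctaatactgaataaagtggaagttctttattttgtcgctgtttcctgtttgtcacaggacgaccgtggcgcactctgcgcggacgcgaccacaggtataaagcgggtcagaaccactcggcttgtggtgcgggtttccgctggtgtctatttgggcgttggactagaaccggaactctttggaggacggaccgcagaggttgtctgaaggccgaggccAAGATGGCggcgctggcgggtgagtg

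Across genes, the change was weakly related to annotated transcript length, which the rule for members did not use. Over the 77 nuclear subunits with a GENCODE M21 length, Pearson's r between log2 length and log2 change was -0.17 and Spearman's rho -0.20, and over 9803 tested genes they were -0.13 and -0.13. These are descriptions across genes of the same 6 libraries, and genes are not independent replicates. Of 29 nuclear subunits with transcripts under 600 bases 16 had a positive change, and of 14 with 1000 to 2000 bases 2 did, where 54.3% and 43.5% of all genes of those lengths did. Of 31 with 600 to 1000 bases 17 had a positive change, and of 3 with 2000 bases or more 1 did. Of all genes of those lengths 48.5% and 34.5% did. The 7 nuclear core genes of complex I had a median length of 977 bases, its accessory genes one of 629. The part of length in the differences between subunit classes was not tested.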

How the data were processed

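RNA sequencing of 6 libraries (3 control, 3 tachypaced) was deposited by the authors as a table of FPKM values for 23060 gene names. The submitters' processing notes name the build GRCm38 (mm10). No aligner, quantifier, annotation, strand setting or filter is named in the sources used here. Read depth could not be recovered from the low values, so no counting error is given and the precision rests on the spread of 3 libraries. Summed FPKM was 411050.1 to 416820 in the control and 419557 to 432244 in the tachypaced libraries, and no 2 libraries were identical. The totals of the groups did not overlap, and the fit as reported did not rescale them.

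Genes averaging 1 FPKM or more were tested on log2(FPKM + 1) with limma 3.58.1 (R 4.3.3, trended prior, two-sided, Benjamini-Hochberg threshold 0.05), over all 10361 genes, after a check on simulated data. Members were read from that fit; complexes were described by medians and by library means, without a test. With 3 libraries a side, the smallest two-sided p of an exact permutation test is 0.1. The members and lists were chosen with earlier results of these data known. Genes described were the called ones, the 13 mitochondrial genes, the extremes of each complex, isoform pairs, the Sdh genes and called genes of the lists; others were named after their values were seen, to describe a subunit class. Some members are not reported individually here. Positions, lengths and transcript sequences came from GENCODE M21 (GRCm38; 105 of 109 members placed), promoters from RefSeq (GRCm38.p6), and copies from BLAST 2.17.0. The labels name no pairing, and the libraries were treated as unpaired. Same-numbered control and tachypaced libraries did not deviate together in every pair, which cannot show whether they were paired. Alternatives covered the pseudocount, the filter, scaling, the prior, library weights, a replicate block and leaving out each library.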

Additional observations from a re-analysis of the deposited data

How the results depend on the processing

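The medians of the mitochondrial genome and of complexes I to IV kept their sign under every alternative that was run. Those of the nuclear genome and of complex V lie near 0 and changed sign under some. For called members, 5 higher and 0 lower as reported, the counts were 0 and 0 with no filter on low values and 0 and 0 without the trended prior, 7 and 2 with a mean of at least 5 FPKM, 7 and 2 with robust hyperparameters (Atp5b and Ndufs7 lower in each), 4 and 0 under median of ratios scaling, where mt-Cytb lost its call, and 1 and 0 under quantile normalization. They were 6 and 10 after rescaling to a common total, 6 and 4 after rescaling without the mitochondrial rows, and 11 and 24 with library weights. For all genes, 238 higher and 334 lower as reported, the counts were 0 and 0 with no filter, 2 and 0 without the trend, 288 and 475 with a mean of at least 5 FPKM (3.85% and 6.35% of the 7483 genes then tested), 291 and 420 with robust hyperparameters (2.81% and 4.05%), 221 and 184 under median of ratios, 13 and 4 under quantile normalization, 250 and 924 with a common total, 261 and 634 without the mitochondrial rows, and 1154 and 1942 with library weights. Quantile normalization gave a mitochondrial median of 0.063 and a complex V median of -0.033. A common total gave a complex II median of -0.188 and a complex V median of -0.029. Library weights gave -0.10 for complex III and -0.13 for complex IV. The cause of these shifts was not tested.

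Leaving out a library gave 0 to 9 members higher and 0 to 23 lower, 1 to 1160 genes higher and 0 to 1948 lower, and a complex III median of -0.107 to -0.020. The upper counts came without control replicate 1; without any other library no member was called. With the replicate block, 6 members were higher and 1, Ndufs1, lower, and 334 genes were higher and 591 lower. The correlations of deviations of same-numbered libraries were 0.061, -0.034 and 0.157. Control replicates 1 and 2 correlated best with tachypaced replicates 2 and 3 (0.081 and 0.045), and control replicate 3 with tachypaced replicate 3. Whether same-numbered libraries were handled together cannot be told from these values. Leaving out Cox5b-ps and Ndufb1-ps, an alternative chosen after seeing the data, changed no call. Read depth is unknown and 3 libraries a group limit what can be called.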
